A study of Mus musculus with 9 samples.

Results

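The proximal signalling genes of the T cell receptor were followed across 3 groups of mouse CD4 T cells on Affymetrix whole-genome arrays. The 9 genes were taken by their symbols in the platform annotation: Cd3e, Cd3d, Cd3g, Cd247, Lck, Fyn, Zap70, Lat and Lcp2. Of these, 8 genes had a named probe set, 15 probe sets in all, out of 18193 genes and 45037 probe sets tested. Lck had no probe set under its symbol in the annotation used and was not analysed here. Each gene was read from its brightest probe set, cross-hybridising ones last, and its other probe sets served as a check.

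The pltTGFβ_iTreg and purTGFβ_iTreg groups were induced regulatory T cells, with 3 arrays each. Both were made from spleen CD4 T cells of Foxp3EGFP mice on a C57BL/6 background, sorted for absence of the green reporter that marks expression of Foxp3. Activation lasted 72 hours, with antibody to CD3 at 2.5 µg/ml, antibody to CD28 at 1 µg/ml and 100 U/ml of IL2 in both cultures. The source of TGFβ was a freeze-thaw lysate of platelets from wild type C57BL/6 mice for pltTGFβ_iTreg and purified TGFβ1 at 5 ng/ml for purTGFβ_iTreg. Tconv, with 3 arrays, stands for conventional T cells of the same strain. How Tconv cells were cultured could not be settled, because the treatment text repeated on all 9 samples names them as given TGFβ1. It is not stated whether cultures were sorted again before RNA was taken, and the text does not say how many animals stood behind an array. P-values therefore measure the spread between these arrays.

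The T cell receptor has no enzyme of its own. Its signal passes through the CD3 chains and the CD247 (zeta) dimer, whose cytoplasmic tails carry paired tyrosines. The SRC-family kinases LCK and FYN phosphorylate those tyrosines, the kinase ZAP-70 docks on them, and ZAP-70 in turn phosphorylates the adaptors LAT and SLP-76 (encoded by Lcp2), on which calcium and RAS signalling are assembled. Antigen receptors that stay engaged are internalised, and the cell also adjusts the amounts of these proteins. In regulatory T cells the same machinery is needed for development and for suppression.

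Zap70 was about 2-fold lower in both iTreg groups than in Tconv, and its arrays lay apart from Tconv on all 3 of its probe sets. Cd247 and Lcp2 fell in purTGFβ_iTreg, by 1.57-fold and 1.55-fold. In pltTGFβ_iTreg the same probe sets of Cd247 and Lcp2 were 1.29-fold and 1.17-fold lower, which did not reach the fold cutoff. The next brightest probe sets of Cd247 and Lcp2 were called in neither iTreg group. A dimmer Cd247 probe set was called lower in both, by 1.04 in pltTGFβ_iTreg and by 0.96 in purTGFβ_iTreg on the log2 scale. Cd3e and Cd3d were lower by 1.30-fold to 1.35-fold in both iTreg groups, below that cutoff, and Cd3g and Lat differed by less. Fyn did not pass on its main probe set, but its other probe set rose by 0.78 in pltTGFβ_iTreg and by 0.80 in purTGFβ_iTreg on the log2 scale.

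A call needed a limma adjusted p under 0.1 and a log2 fold change beyond 0.5 in either direction. The series' design text instead names analysis of variance with a 1.4-fold cutoff and a false discovery rate under 10%. Calls given here for the methods' analysis of variance kept the log2 cutoff of 0.5. Values are log2 expression after Robust Multichip Analysis (RMA), so a difference of 1 is a 2-fold change, and fold changes are the named group minus its comparison group. By this rule 1 of 8 genes fell and 0 rose in pltTGFβ_iTreg against Tconv, where 28.5% of all genes were called and 14.7% were called lower. In purTGFβ_iTreg against Tconv 3 of 8 fell and 0 rose, where 29.3% of all genes were called and 14.9% were called lower. Among all 45037 probe sets 25.3% were called in pltTGFβ_iTreg against Tconv, 15.0% higher and 10.3% lower, and 25.8% in purTGFβ_iTreg against Tconv, 15.5% higher and 10.4% lower. With quantile normalization 19.2% and 19.7% of all genes were called lower in pltTGFβ_iTreg and purTGFβ_iTreg. At an unadjusted p under 0.05, 1 of the 8 was higher and 6 were lower in pltTGFβ_iTreg, and 0 were higher and 5 lower in purTGFβ_iTreg. Of all genes 20.1% were higher and 39.8% lower at that threshold in pltTGFβ_iTreg, and 20.7% higher and 41.7% lower in purTGFβ_iTreg. The methods' analysis of variance gave the same calls, 1 and 3 lower and 0 higher. The median log2 fold change of the 8 genes was -0.30 in pltTGFβ_iTreg and -0.40 in purTGFβ_iTreg, beside -0.16 and -0.17 for all genes. Both comparisons share the Tconv arrays.

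Properties of the whole series touch every comparison with Tconv. Xist, the RNA of the silenced X chromosome, read 3.94 ± 0.05 in pltTGFβ_iTreg, 3.61 ± 0.21 in purTGFβ_iTreg and 10.81 ± 0.16 in Tconv (SD, n = 3 each), and Y-linked Eif2s3y read 8.95 ± 0.07 in pltTGFβ_iTreg, 9.01 ± 0.18 in purTGFβ_iTreg and 2.70 ± 0.11 in Tconv. Sex of the donor animals and iTreg culture thus cannot be told apart in those comparisons. Array pairs correlated across probe sets at 0.996 to 0.998 within pltTGFβ_iTreg, 0.997 to 0.998 within purTGFβ_iTreg and 0.994 to 0.996 within Tconv, and at 0.956 to 0.970 between iTreg and Tconv arrays. RNA came from bulk cultures, so fewer cells of a type and less RNA per cell cannot be told apart.

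Markers of other cells were set beside the receptor genes. All 4 CD3-complex genes read between 8.47 and 12.86 on every array. Array means of 3 B cell markers were 3.76 to 4.07 in pltTGFβ_iTreg, 3.86 to 4.14 in purTGFβ_iTreg and 4.46 to 4.53 in Tconv. In each comparison with Tconv 1 of the 3 was called. Cd79b, a chain of the B cell receptor, fell by 1.65 in pltTGFβ_iTreg and by 1.46 in purTGFβ_iTreg on the log2 scale, while Ms4a1 (0.09 and 0.13) and Cd79a (-0.07 and -0.27) were not called in pltTGFβ_iTreg and purTGFβ_iTreg. Means of 5 myeloid markers were 3.73 to 3.82 in pltTGFβ_iTreg, 3.70 to 3.84 in purTGFβ_iTreg and 3.90 to 4.12 in Tconv. By limma and by the methods' analysis of variance 0 of the 5 were called. In each comparison with Tconv 3 were lower at an unadjusted p under 0.05 by limma, and 1 was called lower with quantile normalization. Means of 4 CD8 and NK cell markers were 4.81 to 4.99 in pltTGFβ_iTreg, 5.27 to 5.40 in purTGFβ_iTreg and 4.74 to 4.87 in Tconv. Of these, Klrd1, a chain of an NK cell receptor, rose by 1.90 in pltTGFβ_iTreg and by 3.17 in purTGFβ_iTreg. Cd8b1, a chain of the CD8 coreceptor, fell by 1.04 in pltTGFβ_iTreg and by 0.98 in purTGFβ_iTreg. Cd8a (-0.20 and -0.05) and Ncr1 (-0.31 and -0.08) were not called in pltTGFβ_iTreg and purTGFβ_iTreg. Means of 4 platelet markers were 4.17 to 4.35 in pltTGFβ_iTreg, 4.07 to 4.23 in purTGFβ_iTreg and 4.48 to 4.61 in Tconv. Itga2b, an integrin chain of platelets, fell by 0.61 in pltTGFβ_iTreg and by 0.63 in purTGFβ_iTreg, and 0 of the 4 rose by limma, at an unadjusted p under 0.05 too, or by the methods' analysis of variance. Between the iTreg groups none of the 4 was called by limma or by the methods' analysis of variance. Pf4 and Ppbp, both platelet chemokines, were each 0.25 higher in pltTGFβ_iTreg at an unadjusted p under 0.05 by limma (adjusted p = 0.247 and 0.254). By the methods' analysis of variance 0 of the 4 were higher at that threshold. Both read low, at 3.30 and 2.70 in pltTGFβ_iTreg against 3.05 and 2.46 in purTGFβ_iTreg. Against Tconv they differed by -0.02 and -0.05 in pltTGFβ_iTreg and by -0.27 and -0.30 in purTGFβ_iTreg. Detection calls were not used here, and the part of these cells in the differences of the receptor genes was not tested.

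The promoter windows of the 3 genes that fell are shown because those genes moved together in purTGFβ_iTreg, and that of Fyn because its second probe set moved the other way. The windows are from RefSeq on build GRCm38.p6, run 250 bases before to 50 bases after an annotated start, and all lie on the plus strand. They are chr1:36761548-36761847 for Zap70, chr1:165788431-165788730 for Cd247, chr11:34046678-34046977 for Lcp2 and chr10:39369549-39369848 for Fyn. Capitals mark AGGAAG or its reverse complement CTTCCT, a core that ETS-family factors bind.
Zap70: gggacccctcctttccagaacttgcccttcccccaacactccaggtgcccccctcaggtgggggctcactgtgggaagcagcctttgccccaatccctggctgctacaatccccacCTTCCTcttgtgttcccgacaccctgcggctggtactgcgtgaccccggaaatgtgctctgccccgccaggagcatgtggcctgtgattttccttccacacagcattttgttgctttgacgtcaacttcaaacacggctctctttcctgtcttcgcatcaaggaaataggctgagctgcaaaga
Cd247: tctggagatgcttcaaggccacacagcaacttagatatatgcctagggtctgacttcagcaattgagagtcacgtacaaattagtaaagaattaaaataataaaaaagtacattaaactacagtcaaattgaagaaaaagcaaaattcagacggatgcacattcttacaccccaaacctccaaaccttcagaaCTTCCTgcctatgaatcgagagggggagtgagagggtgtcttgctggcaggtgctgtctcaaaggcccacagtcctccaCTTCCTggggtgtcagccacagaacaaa
Lcp2: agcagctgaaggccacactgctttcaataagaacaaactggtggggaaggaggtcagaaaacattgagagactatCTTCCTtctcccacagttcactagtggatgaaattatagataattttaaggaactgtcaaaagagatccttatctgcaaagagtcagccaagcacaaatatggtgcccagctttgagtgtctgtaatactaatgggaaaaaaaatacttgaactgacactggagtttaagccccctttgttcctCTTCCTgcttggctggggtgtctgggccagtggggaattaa
Fyn: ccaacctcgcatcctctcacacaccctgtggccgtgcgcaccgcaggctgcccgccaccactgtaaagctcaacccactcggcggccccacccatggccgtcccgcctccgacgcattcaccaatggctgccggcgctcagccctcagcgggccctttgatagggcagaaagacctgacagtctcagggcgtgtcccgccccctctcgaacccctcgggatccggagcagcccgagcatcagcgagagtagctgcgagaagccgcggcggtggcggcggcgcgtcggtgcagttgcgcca
The Zap70 window shown, at the gene's outermost start, held 1 match and its other windows 2 and 0. The Cd247 and Lcp2 windows held 2 each and the Fyn window 0. Among genes not called by limma on their main probe sets, the Cd3d, Cd3e and Lat windows also held 2 each. The window of Cd3g, likewise not called, held 0. Match numbers were not tested against the calls. Searched on both strands, these letters were in 7 of the 10 windows of the measured genes and in 35.4% of 32851 RefSeq windows of the same length. CAGGTG, an E-box core, was in 6 of the 10 and in 20.2% of all windows. TGTGGT, a RUNX core, was in 2 of the 10 and in 16.8% of all windows. No match of one motif overlapped a match of another. A match describes the letters of a window and is not a measured binding site.

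**Figure D1:**
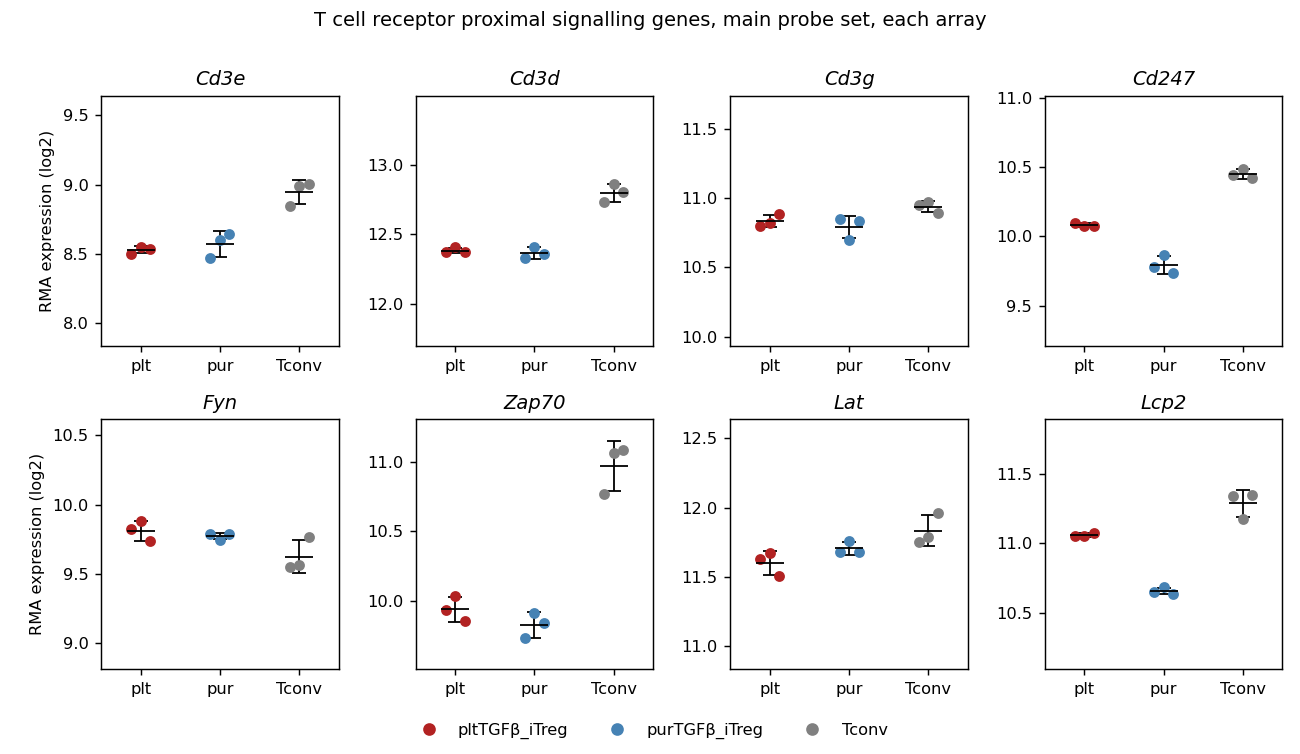
Log2 RMA expression of the main probe set of each gene on every array, by group, with 3 arrays each. Points are arrays, the wide bar is the mean and the whiskers are 1 SD; every panel spans the same range of 1.8 log2 units, and the Zap70 arrays of both iTreg groups (9.73 to 10.03) lie below those of Tconv (10.77 to 11.08).

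The CD3 chains form the part of the receptor that assembles around the antigen-binding chains. CD3ε (Cd3e, probe set 1422105_at) pairs with CD3δ and CD3γ and is required for receptor assembly. Cd3e read 8.50, 8.55 and 8.53 on the pltTGFβ_iTreg arrays, 8.47, 8.60 and 8.64 on the purTGFβ_iTreg arrays and 8.84, 8.99 and 9.005 on the Tconv arrays. All 6 iTreg arrays were below all Tconv arrays. The log2 fold change was -0.42 ± 0.08 (SE, limma adjusted p = 0.00143) in pltTGFβ_iTreg and -0.37 ± 0.08 (adjusted p = 0.00287) in purTGFβ_iTreg, both within the fold cutoff and so not called. Quantile normalization took Cd3e past the cutoff in both comparisons, at -0.56 and -0.52.

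CD3δ (Cd3d, 1422828_at) is the partner of CD3ε whose gene lies beside that of CD3γ. Cd3d read 12.37, 12.41 and 12.37 in pltTGFβ_iTreg, 12.33, 12.41 and 12.36 in purTGFβ_iTreg and 12.73, 12.86 and 12.80 in Tconv. The iTreg groups overlapped each other and neither overlapped Tconv. The log2 fold change was -0.42 ± 0.07 (limma adjusted p = 0.00069) in pltTGFβ_iTreg and -0.43 ± 0.07 (adjusted p = 0.000497) in purTGFβ_iTreg, again short of the fold cutoff.

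CD3γ (Cd3g, 1419178_at) carries the motif by which the receptor is taken into the cell. Cd3g read 10.80, 10.82 and 10.88 in pltTGFβ_iTreg, 10.85, 10.70 and 10.83 in purTGFβ_iTreg and 10.95, 10.97 and 10.89 in Tconv. The iTreg arrays stood just under the lowest Tconv array. The log2 fold change was -0.10 (95% interval -0.27 to 0.07) in pltTGFβ_iTreg and -0.14 (-0.31 to 0.03) in purTGFβ_iTreg, and neither passed (limma adjusted p = 0.306 and 0.145). Whether the Cd3g difference is smaller than those of Cd3e and Cd3d was not tested.

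CD247 (Cd247, 1426396_at), the zeta chain, contributes most of the tyrosine motifs of the complex. Cd247 read 10.10, 10.07 and 10.07 in pltTGFβ_iTreg, 9.78, 9.86 and 9.74 in purTGFβ_iTreg and 10.44, 10.48 and 10.42 in Tconv. The 3 groups did not overlap, with purTGFβ_iTreg lowest, pltTGFβ_iTreg between and Tconv highest. Cd247 fell by 0.65 ± 0.07 on the log2 scale in purTGFβ_iTreg (limma adjusted p = 1.78e-05) and differed by -0.37 ± 0.07 in pltTGFβ_iTreg (adjusted p = 0.00159, not called). Between the iTreg groups it was 0.29 ± 0.07 higher in pltTGFβ_iTreg (adjusted p = 0.0443), under the fold cutoff.

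The other probe sets of Cd247 gave different sizes. Probe set 1452539_a_at differed by -0.13 in pltTGFβ_iTreg (adjusted p = 0.281) and by -0.48 in purTGFβ_iTreg (adjusted p = 0.00143), neither called by limma. The dimmer 1420716_at fell by 1.04 in pltTGFβ_iTreg and by 0.96 in purTGFβ_iTreg on the log2 scale, and did not differ between the iTreg groups beyond its spread (-0.08, 95% interval -0.33 to 0.17). Its arrays read 6.23 to 6.52 in pltTGFβ_iTreg, 6.34 to 6.57 in purTGFβ_iTreg and 7.25 to 7.55 in Tconv. The fourth, 1426079_at, read 3.14 to 3.65 on all arrays and was not called. The fall in purTGFβ_iTreg was thus called by 2 of the 4 probe sets and the fall in pltTGFβ_iTreg by 1. The transcripts each probe set detects were not analysed here.

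FYN (Fyn, 1417558_at) is the second SRC-family kinase of T cells beside LCK and also acts with the SLAM receptors. Fyn read 9.82, 9.88 and 9.74 in pltTGFβ_iTreg, 9.79, 9.75 and 9.79 in purTGFβ_iTreg and 9.55, 9.57 and 9.76 in Tconv. Tconv replicate 3 lay among the iTreg arrays and the other Tconv arrays lay below them. The log2 fold change was 0.19 (95% interval 0.00 to 0.37, limma adjusted p = 0.0929) in pltTGFβ_iTreg and 0.15 (-0.04 to 0.33, adjusted p = 0.166) in purTGFβ_iTreg, and neither passed.

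The other Fyn probe set, 1448765_at, read 8.82 to 8.93 in pltTGFβ_iTreg, 8.80 to 8.98 in purTGFβ_iTreg and 7.97 to 8.21 in Tconv, without overlap between iTreg and Tconv. It rose by 0.78 ± 0.09 in pltTGFβ_iTreg (limma adjusted p = 2.12e-05) and by 0.80 ± 0.09 in purTGFβ_iTreg (adjusted p = 1.57e-05). Both probe sets had the same sign and similar values in the iTreg groups, but only 1 of the 2 was called. Their difference from each other was not tested.

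ZAP-70 (Zap70, 1422701_at) is the kinase that binds the phosphorylated receptor tails and carries the signal to LAT and SLP-76. Zap70 read 9.93, 10.03 and 9.85 in pltTGFβ_iTreg, 9.73, 9.91 and 9.84 in purTGFβ_iTreg and 10.77, 11.07 and 11.08 in Tconv. The highest iTreg array was below the lowest Tconv array, Tconv replicate 1. Zap70 fell by 1.03 ± 0.10 in pltTGFβ_iTreg (2.05-fold lower, limma adjusted p = 7.01e-06) and by 1.15 ± 0.10 in purTGFβ_iTreg (2.21-fold lower, adjusted p = 2.70e-06) on the log2 scale. The iTreg groups overlapped, with a difference of 0.11 (95% interval -0.11 to 0.34, adjusted p = 0.711).

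Both other Zap70 probe sets were called in the same direction. Probe set 1440178_x_at, which can cross-hybridise, fell by 1.11 in pltTGFβ_iTreg and by 1.16 in purTGFβ_iTreg on the log2 scale, and 1439749_at fell by 0.59 in pltTGFβ_iTreg and by 0.52 in purTGFβ_iTreg. Probe set 1440178_x_at read 9.04 to 9.23 in pltTGFβ_iTreg, 8.99 to 9.17 in purTGFβ_iTreg and 10.16 to 10.32 in Tconv. Probe set 1439749_at read 7.12 to 7.34 in pltTGFβ_iTreg, 7.11 to 7.41 in purTGFβ_iTreg and 7.68 to 7.93 in Tconv. Zap70 was the gene whose group means spanned the widest range, 1.15 log2 units, and its calls against Tconv held under each alternative to the normalization, model, probe set, cutoff and arrays that was run.

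**Figure D2:**
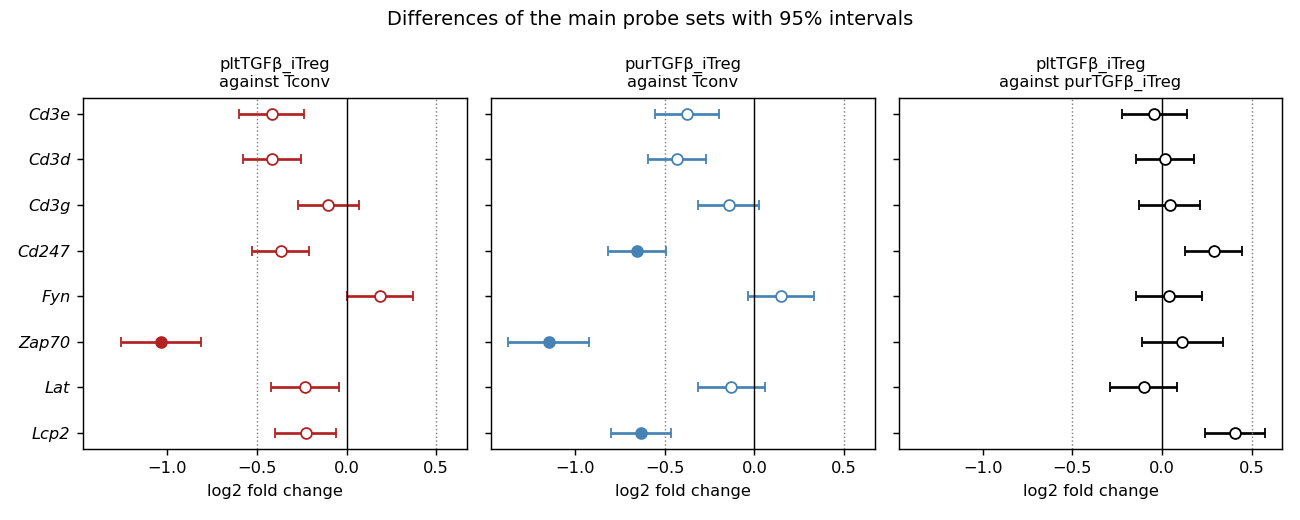
Log2 fold changes of the main probe sets with 95% limma intervals, in 3 comparisons. Filled points passed both cutoffs, open points did not, and dotted lines mark a fold change of 0.5 either way; Zap70 is filled in both comparisons with Tconv, at -1.03 and -1.15, and no point is filled between the iTreg groups.

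LAT (Lat, 1460651_at) is the membrane adaptor that ZAP-70 phosphorylates. Lat read 11.63, 11.68 and 11.51 in pltTGFβ_iTreg, 11.68, 11.76 and 11.68 in purTGFβ_iTreg and 11.75, 11.79 and 11.96 in Tconv. The purTGFβ_iTreg arrays overlapped those of Tconv, and the pltTGFβ_iTreg arrays lay below both, by a narrow margin against purTGFβ_iTreg. The log2 fold change was -0.23 (95% interval -0.42 to -0.04, limma adjusted p = 0.046) in pltTGFβ_iTreg, under the fold cutoff, and -0.13 (-0.32 to 0.06, adjusted p = 0.239) in purTGFβ_iTreg.

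SLP-76 (Lcp2, 1418641_at) is the cytoplasmic adaptor that is tied to LAT and gathers VAV1 and NCK. Lcp2 read 11.05, 11.05 and 11.07 in pltTGFβ_iTreg, 10.65, 10.68 and 10.64 in purTGFβ_iTreg and 11.34, 11.18 and 11.35 in Tconv. The 3 groups were separate, in the same order as for Cd247. Lcp2 fell by 0.63 ± 0.08 on the log2 scale in purTGFβ_iTreg (limma adjusted p = 3.47e-05) and differed by -0.23 ± 0.08 in pltTGFβ_iTreg (adjusted p = 0.0305, not called). The difference between the iTreg groups was 0.40 ± 0.08, higher in pltTGFβ_iTreg (adjusted p = 0.00864), which missed the fold cutoff.

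The dimmer Lcp2 probe set, 1418642_at, kept that order of means. It read 7.41 to 7.67 in pltTGFβ_iTreg, 7.05 to 7.22 in purTGFβ_iTreg and 7.56 to 7.64 in Tconv, so that pltTGFβ_iTreg and Tconv overlapped. Its log2 fold change was -0.08 (adjusted p = 0.488) in pltTGFβ_iTreg and -0.44 (adjusted p = 0.00191) in purTGFβ_iTreg, neither called by limma, and 0.36 between the iTreg groups (adjusted p = 0.0423), again without reaching the fold cutoff.

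**Figure D3:**
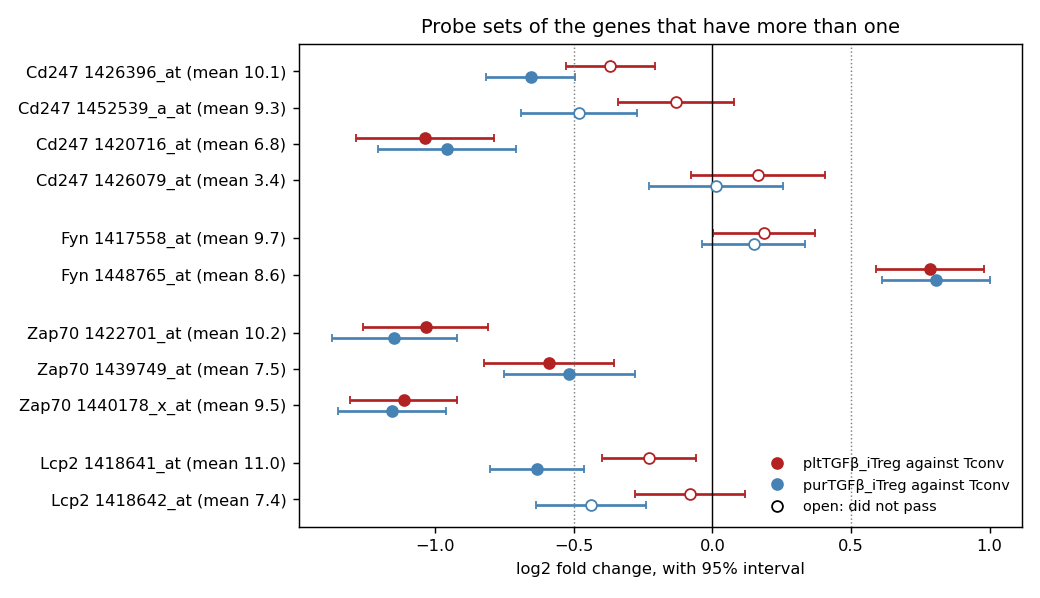
Log2 fold changes against Tconv, with 95% limma intervals, for every probe set of the 4 genes that have more than 1, with the mean log2 expression over 9 arrays in parentheses. All 3 Zap70 probe sets are called lower in both iTreg groups, while 1 of 2 Fyn probe sets is called higher and the Cd247 probe sets range from -1.04 to 0.16 in pltTGFβ_iTreg.

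Set against each other, pltTGFβ_iTreg and purTGFβ_iTreg differed by at most 0.40 on the log2 scale at any of the 8 main probe sets. None of the 8 was called by limma or by the methods' analysis of variance, where limma called 4.11% of all genes, 1.54% higher and 2.57% lower. By limma 2 were higher and 0 lower at an unadjusted p under 0.05, Cd247 and Lcp2, as 9.04% and 9.95% of all genes were, and the same 2 had an adjusted p under 0.1, as 9.72% of all genes did. Arrays of the groups did not overlap for 3 of the 8, Cd247, Lcp2 and Lat, a separation that 28.2% of all genes showed. Against Tconv the arrays did not overlap for 7 of the 8 in pltTGFβ_iTreg, where 59.0% of all genes were separate, and for 6 of the 8 in purTGFβ_iTreg, where 62.7% were. These counts were not tested against those shares.

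By adjusted p alone, with no fold cutoff, 6 of the 8 were lower and 1 higher in pltTGFβ_iTreg, and 5 were lower and 0 higher in purTGFβ_iTreg (0 higher also at an unadjusted p under 0.05 by limma). On that rule 60.4% of all genes passed in pltTGFβ_iTreg, with 40.3% lower, and 63.4% passed in purTGFβ_iTreg, with 42.6% lower. An exact test of 3 against 3 arrays cannot go below 0.1, so none was run.

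Genes whose profile over the 9 arrays was most like that of Zap70 were Pold2, a subunit of a DNA polymerase, Pfkm, a phosphofructokinase of glycolysis, and Cd70, the ligand of the costimulatory receptor CD27. After each gene's own mean was subtracted, they differed from Zap70 by a root-mean-square of 0.0552, 0.0571 and 0.0618 log2 units. Of the other receptor genes the nearest was Cd247, at 0.300, ranked 1939 of 18193 genes. Cd3d followed at 0.325 and Cd3e at 0.340, and Fyn was farthest at 0.60. The measure rests on 3 groups of 3 arrays and is a description.

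Beyond these genes, the receptor's partners at the membrane went both ways. Trac, Trbc1 and Trbc2, listed for the antigen-binding chains, had no named probe set and were not analysed here. Of 5 partners measured, 2 rose and 3 fell in pltTGFβ_iTreg, and 0 rose and 3 fell in purTGFβ_iTreg. In purTGFβ_iTreg 2 were higher at an unadjusted p under 0.05 by limma and 0 were called higher by the methods' analysis of variance. Calls over all genes were 13.9% higher and 14.7% lower in pltTGFβ_iTreg, and 14.5% higher and 14.9% lower in purTGFβ_iTreg. Cd28, the costimulatory receptor, rose by 0.78 ± 0.10 in pltTGFβ_iTreg and read 0.46 ± 0.10 higher in purTGFβ_iTreg without being called, while its other probe set rose by 1.45 in pltTGFβ_iTreg and by 1.07 in purTGFβ_iTreg. Cd2, an adhesion receptor, rose by 0.52 ± 0.08 in pltTGFβ_iTreg and read 0.35 ± 0.08 higher in purTGFβ_iTreg. With array medians centred, 1 partner rose in purTGFβ_iTreg. Cd4, the coreceptor that brings LCK to the complex, fell by 0.62 ± 0.15 in pltTGFβ_iTreg and by 0.72 ± 0.15 in purTGFβ_iTreg. Its arrays averaged 8.06 ± 0.15 in pltTGFβ_iTreg, 7.95 ± 0.12 in purTGFβ_iTreg and 8.67 ± 0.32 in Tconv (SD, n = 3 each), with the largest spread in Tconv. Cd5 and Cd6, scavenger-type receptors that restrain receptor signals, fell by 0.59 and 0.63 in pltTGFβ_iTreg and by 0.84 and 0.92 in purTGFβ_iTreg on the log2 scale.

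The list of enzymes and adaptors that control LCK, ZAP-70 and their substrates had 5 rises and 6 falls among 17 genes in pltTGFβ_iTreg. In purTGFβ_iTreg it had 4 rises and 5 falls. All genes had 13.9% called higher and 14.7% lower in pltTGFβ_iTreg, and 14.5% higher and 14.9% lower in purTGFβ_iTreg. Centring the array medians gave 7 rises and 5 falls in pltTGFβ_iTreg, and 6 rises and 5 falls in purTGFβ_iTreg. Ubash3b, a phosphatase that acts on ZAP-70, rose by 0.96 in pltTGFβ_iTreg and by 1.29 in purTGFβ_iTreg on the log2 scale, and both of its other probe sets were called higher. Ptpn22, a phosphatase that acts on LCK and ZAP-70, rose by 0.66 in pltTGFβ_iTreg and by 0.86 in purTGFβ_iTreg. Pag1, the membrane anchor of the inhibitory kinase CSK, rose by 1.12 in pltTGFβ_iTreg and by 1.22 in purTGFβ_iTreg on its main probe set, while its 3 dimmer probe sets read from -0.33 to -0.08 and were not called. Csk itself fell by 0.59 in pltTGFβ_iTreg (-0.44 in purTGFβ_iTreg, not called), and Ptprc, the CD45 phosphatase that opposes CSK, rose by 0.69 in pltTGFβ_iTreg (0.48 in purTGFβ_iTreg, not called). Cbl, a ubiquitin ligase, rose by 0.53 in pltTGFβ_iTreg and by 0.68 in purTGFβ_iTreg, and neither of its 2 other probe sets was called.

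Unc119, a chaperone of lipid-modified proteins that associates with LCK and FYN, had the largest fall of that list's main probe sets in both comparisons, by 1.46 in pltTGFβ_iTreg and by 1.58 in purTGFβ_iTreg on the log2 scale. Its arrays read 7.02 to 7.08 in pltTGFβ_iTreg, 6.85 to 7.05 in purTGFβ_iTreg and 8.30 to 8.63 in Tconv. Dok2, an adaptor that damps receptor signals, fell by 0.63 in pltTGFβ_iTreg and by 0.98 in purTGFβ_iTreg, and its relative Dok1 fell by 0.73 in pltTGFβ_iTreg and read -0.23 in purTGFβ_iTreg. Further restraints of the receptor fell in purTGFβ_iTreg. Cblb, a ubiquitin ligase, fell there by 1.42 ± 0.12 and Sla, an adaptor that promotes receptor degradation, by 0.99 ± 0.10. On these probe sets pltTGFβ_iTreg differed from Tconv by -0.49 and -0.16 without a call. The Cblb difference in pltTGFβ_iTreg, 1.40-fold with a limma adjusted p of 0.00687, lay at the authors' fold cutoff. Another Cblb probe set fell by 1.13 in pltTGFβ_iTreg and by 1.90 in purTGFβ_iTreg, and a further one read 0.39 in pltTGFβ_iTreg and -0.22 in purTGFβ_iTreg, not called.

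Directly between the iTreg groups, 3 of the 17 genes were called, as were 4.11% of all genes. Cblb was higher in pltTGFβ_iTreg by 0.94 ± 0.12 (limma adjusted p = 0.000744), with arrays at 8.32 to 8.41 in pltTGFβ_iTreg against 7.35 to 7.49 in purTGFβ_iTreg. Sla was higher by 0.83 ± 0.10 (adjusted p = 0.000447), at 10.20 to 10.31 in pltTGFβ_iTreg against 9.40 to 9.47 in purTGFβ_iTreg. Dok1 was 0.51 lower in pltTGFβ_iTreg (adjusted p = 0.00558). All 3 Cblb probe sets were called higher in pltTGFβ_iTreg than in purTGFβ_iTreg, and so were 3 of 4 Sla probe sets. With quantile normalization 2 of the 17 were called higher and 0 lower.

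Partners that act downstream of LAT and SLP-76 included more rises than falls, and about as many genes were not called. Of 18 measured, 8 rose, 1 fell and 9 were not called in pltTGFβ_iTreg, and 7 rose, 1 fell and 10 were not called in purTGFβ_iTreg. Of all genes 13.9% were called higher and 14.7% lower in pltTGFβ_iTreg, and 14.5% higher and 14.9% lower in purTGFβ_iTreg. Quantile normalization gave 7 rises and 3 falls in pltTGFβ_iTreg and 5 rises and 1 fall in purTGFβ_iTreg, and centred medians gave 8 rises and 0 falls in pltTGFβ_iTreg (3 lower at an unadjusted p under 0.05 by limma). The median of the list was 0.23 in both, beside -0.16 in pltTGFβ_iTreg and -0.17 in purTGFβ_iTreg for all genes. This list was chosen with earlier results of these data known, and its difference from all genes was not tested. Txk and Tec, kinases of the TEC family, rose by 1.75 and 0.94 in pltTGFβ_iTreg and by 2.20 and 1.16 in purTGFβ_iTreg on the log2 scale.

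Nck1, an adaptor that links the receptor to actin, rose by 1.38 in pltTGFβ_iTreg and by 1.48 in purTGFβ_iTreg, and its 2 dimmer probe sets read 0.42 to 0.44 without a call. Its relative Nck2 fell by 0.73 in purTGFβ_iTreg and read -0.45 in pltTGFβ_iTreg. Sos1, an activator of RAS, rose by 1.63 in pltTGFβ_iTreg and by 1.55 in purTGFβ_iTreg on its main probe set, while its 4 dimmer probe sets ranged from -0.42 to 0.48 and were not called. Plcg1, the phospholipase that starts the calcium signal, fell by 0.55 in pltTGFβ_iTreg and read -0.10 in purTGFβ_iTreg on its main probe set. Its other, dimmer probe sets read 0.007 and -0.009 in pltTGFβ_iTreg and -0.22 and -0.11 in purTGFβ_iTreg, not called. Between the iTreg groups 0 of the 18 were called by limma or the methods' analysis of variance, and 3 were higher and 3 lower at an unadjusted p under 0.05 by limma.

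Of relatives of the kinases and adaptors that serve in other blood cells, 22.2% were called lower and 0 higher in pltTGFβ_iTreg against Tconv. All genes had 13.9% called higher and 14.7% lower in pltTGFβ_iTreg, and 14.5% higher and 14.9% lower in purTGFβ_iTreg. Array means over 9 such genes were 3.90 to 4.04 in pltTGFβ_iTreg, 4.05 to 4.13 in purTGFβ_iTreg and 4.16 to 4.30 in Tconv. Syk, the relative of ZAP-70 in B and myeloid cells, was looked up after its values were seen. It read 3.55 to 3.93 in pltTGFβ_iTreg, 3.59 to 3.93 in purTGFβ_iTreg and 3.87 to 4.35 in Tconv, and was not called. Of the 9, 2 fell in pltTGFβ_iTreg. Fgr, a SRC-family kinase, fell by 0.54 (6.06 to 6.27 in pltTGFβ_iTreg against 6.66 to 6.83 in Tconv). Its other probe set read -0.12 and was not called. Tyrobp, a signalling chain of myeloid and NK cells, fell by 0.70. Its readings were low, 3.07 to 3.36 in pltTGFβ_iTreg against 3.80 to 3.99 in Tconv. None of the 9 was called in purTGFβ_iTreg by limma or the methods' analysis of variance, with 1 higher and 3 lower at an unadjusted p under 0.05. With quantile normalization 1 was called lower there. Src, the founding kinase of the family, was 0.54 lower in pltTGFβ_iTreg than in purTGFβ_iTreg on its main probe set (-0.20 and not called on the other), with readings of 3.74 to 3.92 in pltTGFβ_iTreg against 4.34 to 4.47 in purTGFβ_iTreg.

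**Figure D4:**
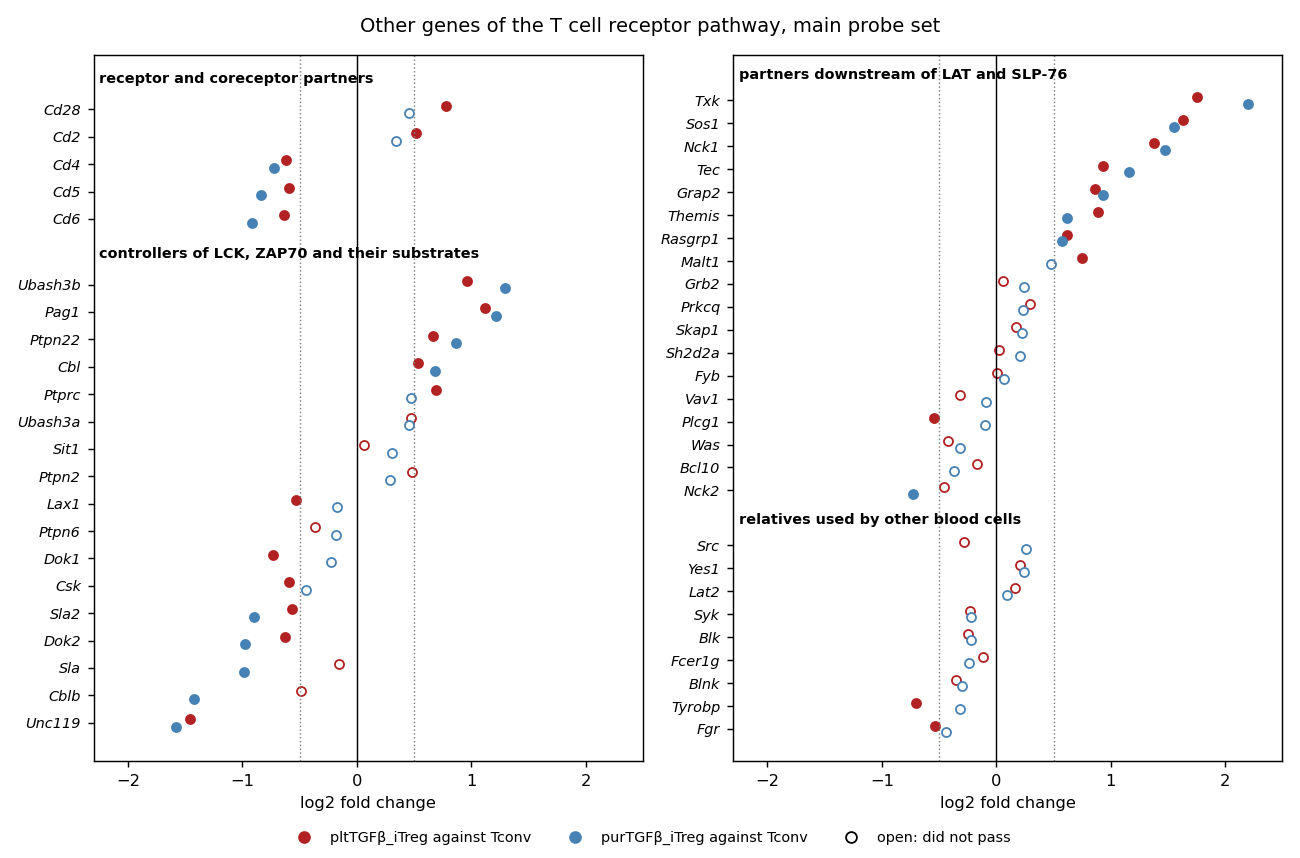
Log2 fold changes against Tconv of the other pathway genes on their main probe sets, grouped in 4 lists and ordered within each by the purTGFβ_iTreg value. Filled points passed both cutoffs and dotted lines mark 0.5 either way; among partners downstream of LAT and SLP-76, 8 filled points lie to the right and 1 to the left in pltTGFβ_iTreg.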

How the data were processed

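Log2 expression values were deposited by the authors for 45101 probe sets on 9 Affymetrix mouse genome arrays, 3 per group. Per the series' design text, they came from RMA in Affymetrix Expression Console, and the authors tested with ANOVA in Partek Genomics Suite 6.6, keeping a 1.4-fold difference at a false discovery rate under 10%. RMA compresses dim values. The 64 control probe sets were left out, leaving 45037. Names came from the platform annotation: 34945 probe sets had 1 symbol, 932 several and 9160 none listed. No array had counts or depth, and the number of arrays limits the precision.

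The 3 comparisons were contrasts of 1 limma model over all arrays (limma 3.58.1, R 4.3.3), two-sided, with Benjamini-Hochberg adjustment over all 45037 probe sets. The fit was tested on simulated data. Tables and plots used Python 3.11.15, pandas 2.3.3 and matplotlib 3.10.9.

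The genes and lists were chosen with earlier results of these data known. Other pathway genes came from lists written from general knowledge, keeping the genes that the annotation names for a probe set. All receptor genes were named. From each list up to 4 called genes per comparison and direction, by size of change, were named, and 3 genes by likeness to the gene of widest range; Syk was added. Alternatives were quantile normalization, centred medians, leaving out the dimmest 40%, a trend with robust variances, the methods' analysis of variance, fits on only the groups compared, the replicate number as a block, other probe sets (second brightest or the mean), 3 other cutoffs and omission of single arrays.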

Additional observations from a re-analysis of the deposited data

Results flagged for a closer look

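Chosen for a second look were genes whose difference from Tconv was not the same in both iTreg groups, by the direct limma contrast between pltTGFβ_iTreg and purTGFβ_iTreg at an adjusted p under 0.1 and any size. Of the 8 receptor genes 2 met this, as 9.72% of all genes did. Of 29 other named genes 11 met it, but these had been picked for a call in one of the comparisons, this one included. Among receptor genes, Lcp2 was 0.40 higher in pltTGFβ_iTreg than in purTGFβ_iTreg (differences from Tconv of -0.23 and -0.63) and Cd247 was 0.29 higher (-0.37 and -0.65).

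Among controllers of the kinases, Cblb was 0.94 higher in pltTGFβ_iTreg, Sla 0.83 higher and Dok2 0.35 higher, while Dok1 differed by -0.51 and Ubash3b by -0.33. Of downstream partners, Nck2 was 0.28 higher, and Plcg1 and Txk each differed by -0.45. The other, dimmer Plcg1 probe sets differed by 0.22 and 0.11 there, the opposite sign, and were not called. Src differed by -0.54 and Tyrobp by -0.38, both from low readings. Klrd1 differed by -1.27, being 1.90 and 3.17 above Tconv. Groups of 3 arrays are too small for a search for single outlying arrays, and no cause of these differences was tested.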

How the results depend on the processing

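For the 8 receptor genes the counts of calls were 1 in pltTGFβ_iTreg against Tconv, 3 in purTGFβ_iTreg against Tconv and 0 between the iTreg groups. Leaving out each array in turn gave 1 to 1, 3 to 3 and 0 to 0. The first count was 2 with quantile normalization (Cd3e added), 2 with the second brightest probe sets (Fyn added) and 7 with no fold cutoff. The second was 4 with quantile normalization (Cd3e added), 2 with the second brightest probe sets (Zap70, and Fyn as a rise), 5 with no fold cutoff and 1 at a 2-fold cutoff with adjusted p under 0.05, where Zap70 was left. With no fold cutoff the third was 2. The replicate number as a block gave 1, 3 and 0, so it changed no call. Same-numbered arrays deviated together in 2 of 9 pairs (correlation above 0.1, range -0.12 to 0.26), and 5 of the 9 pairs correlated best with their own number. All 3 pairs of pltTGFβ_iTreg with purTGFβ_iTreg were positive (0.19, 0.26 and 0.09) and best with their own number. Because 1 was not above 0.1, the numbers were not taken as pairs. The block was fitted over all 9 arrays and not over the iTreg arrays alone. Whether same-numbered iTreg arrays were prepared together was thus not settled. Of 504 values of single genes under the alternatives, 483 kept sign and call, 14 gained a call, 4 lost it and 3 changed sign. The sign changes were near 0 and uncalled, all between the iTreg groups. Cd3g ranged from -0.0046 without purTGFβ_iTreg replicate 2 to 0.0689 over the arrays left out. Second brightest probe sets gave -0.0214 for Fyn and -0.0728 for Zap70. Cross-hybridising probe sets were ranked last here, so the Zap70 value is that of 1439749_at. The brighter 1440178_x_at differed by 0.0422 and kept the sign. Second brightest probe sets also ended the calls of Cd247 (-0.48) and Lcp2 (-0.44) in purTGFβ_iTreg. Causes were not tested. Signal over background was not assessed.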
